A study of Mus musculus with 92 samples.

Results

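Macrophages grown from an immortalized progenitor line were set against macrophages grown directly from bone marrow, gene family by gene family. The comparison took 6 of the 92 bulk RNA libraries of the series, chosen by their sample labels alone: the ER-Hoxb8 macrophages (replicates 1, 2 and 3) and the bone marrow-derived (BMD) macrophages (replicates 1, 2 and 3), each grown for 7 days in vitro. The question was which pathways and families set the cultures apart beyond the 13 macrophage identity genes.

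ER-Hoxb8 progenitors carry a fusion of Hoxb8 with the hormone-binding domain of the estrogen receptor. While estrogen is present the fusion protein keeps them dividing and undifferentiated, and once estrogen is removed they mature in the presence of macrophage colony-stimulating factor (M-CSF). Macrophages grown from whole marrow with M-CSF are the usual primary counterpart, and both kinds of cell are engulfing cells that handle large amounts of lipid, iron and debris.

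The BMD macrophages came from marrow of FVB mice that were WT. The ER-Hoxb8 macrophages came from an FVB Cas9 mouse and their genotype is given as Cas9 het, so the fusion gene, the Cas9 allele and the donor all differ between the groups. So does the history of the cells. By the methods of the study the ER-Hoxb8 progenitors were first kept in interleukins and stem cell factor, infected with a virus that carries the fusion gene, selected with Geneticin and expanded for weeks in beta-estradiol and GM-CSF, whereas BMD macrophages were grown from marrow progenitors directly. These factors cannot be told apart here. For the final 7 days both groups were grown in M-CSF with serum, and the labels give no treatment for either. The results of the study speak of independently made ER-Hoxb8 lines, but the labels do not say which replicate is which line. As a side comparison, 6 libraries of BMD cells and 6 of ER-Hoxb8 cells were used that had been injected into the brains of mice without CSF1R, the M-CSF receptor, and re-isolated from there (genotype label WT for both kinds of cell).

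Expression is given as log2 CPM, the base-2 logarithm of counts scaled to a library of 1 M (mega) counts after the authors' normalization, on which a gene without counts sits at -3.62. A difference is the ER-Hoxb8 mean minus the BMD mean on that scale, so a difference of 1 is a doubling. The depth recovered from the values was 24.5, 43.2 and 25.1 M counts in BMD replicates 1, 2 and 3 and 39.3, 39.8 and 39.1 M counts in the ER-Hoxb8 replicates. A gene was tested when it exceeded 1 CPM in at least 3 of the 6 libraries, which held for 10764 genes. It was called when the adjusted p of limma was below 0.05 and the difference was at least 2 in either direction. Groups did not overlap when every library of one lay above every library of the other. A gene with no more than 3 counts in each of the 3 libraries was taken as at the floor of detection, and its fold difference is given as a bound: the mean log2 level of the other group against the mean log2 value of 3 counts per library. Floors cover counting error only. CPM are not scaled for gene length, so levels are compared between samples and not between genes.

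BMD replicate 3 and ER-Hoxb8 replicate 3 stood apart from the other libraries of their groups. In the labels the library of BMD replicate 3 also has a name of another kind (wBM_1) than those of BMD replicates 1 and 2 (Mac1 and Mac3), with no word on what that means. Without that library 101 genes were called, and other values without it stand beside the results. Across the tested genes the rank correlation of BMD replicates 1 and 2 was 0.949, whereas BMD replicate 3 reached 0.898 and 0.860 with them. ER-Hoxb8 replicates 1 and 2 correlated at 0.976, and ER-Hoxb8 replicate 3 reached 0.890 and 0.898 with them. These are correlations across genes, and genes are not independent replicates. The chemokine receptor Cx3cr1 showed how far single libraries strayed: it was at 9.66, 2.97 and 10.43 in the BMD macrophages and at 8.72, 9.29 and 1.81 in the ER-Hoxb8 macrophages, with 1 low library in each group. Genes of mitosis averaged 4.07, 2.94 and 7.03 in the BMD and 6.39, 6.08 and 3.44 in the ER-Hoxb8 macrophages, so BMD replicate 3 was the highest of its group and ER-Hoxb8 replicate 3 the lowest of its own. Ftl1, the ferritin light chain, took 5.82%, 7.15% and 4.23% of the counts in the BMD macrophages and 6.37%, 8.68% and 13.4% in the ER-Hoxb8 macrophages. Libraries with the same replicate number were not alike: after the group means were removed, they correlated at -0.19, -0.23 and -0.39. The labels name no pairing and these correlations cannot exclude one, so the libraries were treated as unpaired.

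The largest contrasts were in genes that one culture expressed and the other hardly did, and most of them were missing from the ER-Hoxb8 macrophages. Of the 10764 tested genes 158 (1.47%) were called, 30 (0.279%) higher and 128 (1.19%) lower in the ER-Hoxb8 macrophages, and 1327 had an unadjusted p below 0.05. In all 158 the groups did not overlap, against 1234 genes (11.5%) that lay wholly higher and 1007 (9.36%) wholly lower among all tested. The genes called lower had a median difference of -5.02, and 83 of the 128 were under 1 CPM in every ER-Hoxb8 library. Those called higher had a median of 4.03, and 10 of the 30 were under 1 CPM in every BMD library. The tested genes as a whole were centred, with a median difference of 0.02. With array weights, which count some libraries less, 281 were called higher and 391 lower, so the lean towards lower calls was weaker. The number of calls leaned on single libraries. It was 10 without BMD replicate 1, 30 without BMD replicate 2, 101 without BMD replicate 3, 58 without ER-Hoxb8 replicate 1, 86 without ER-Hoxb8 replicate 2 and 109 without ER-Hoxb8 replicate 3. In bulk RNA, fewer cells that express a gene and less RNA of it per cell cannot be told apart.

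**Figure D1:**
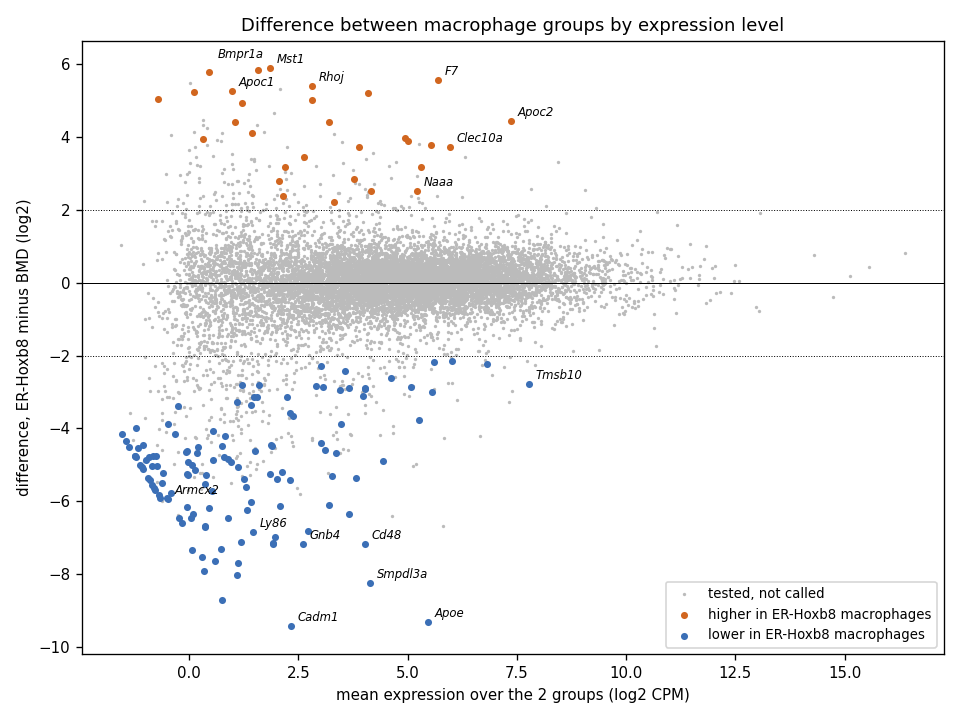
Difference between the groups (ER-Hoxb8 minus BMD, log2) against the mean expression (log2 CPM) of each of the 10764 tested genes; orange points are the 30 genes called higher, blue points the 128 called lower, and dotted lines mark a difference of 2 in either direction. The called genes lie mostly at low to middle expression, and the blue points reach further from 0 than the orange ones.

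Of the called genes 10 passed the test in the full comparison and again each time 1 library was left out, 7 of them lower and 3 higher in the ER-Hoxb8 macrophages. Cadm1, an adhesion molecule of the immunoglobulin superfamily, was at 6.36, 7.15 and 7.65 in the BMD and at -2.37, -2.29 and -2.47 in the ER-Hoxb8 macrophages (difference -9.43, SE 0.452, adjusted p = 0.000764). Gnb4, a beta subunit of heterotrimeric G proteins, was at 6.27, 6.38 and 5.90 against -0.96, -1.28 and -0.70 (difference -7.16, SE 0.375, adjusted p = 0.000936). The glycolipid-building enzyme B3galnt1 was at 4.78, 4.25 and 3.83 in the BMD macrophages and without counts in all 3 ER-Hoxb8 libraries, which makes it at least 204-fold lower (adjusted p = 0.00238). In each of these genes the replicates of a group lay close together and the groups were far apart. Aig1, a hydrolase of fatty acid esters, was at 5.50, 5.82 and 5.06 against -1.78, -0.83 and -1.92 (difference -6.97, adjusted p = 0.00238). Tmem37, a membrane protein related to calcium channel subunits, was at 6.09, 6.12 and 5.58 against 0.45, 1.00 and 0.46 (difference -5.29, adjusted p = 0.00238). Smpdl3a and Apoe complete the 7 lower genes and are described with their neighbours. The 3 higher genes code for a ligand, a receptor and a switch protein. Mst1, the secreted macrophage-stimulating protein, was at -1.76, -0.60 and -0.89 in the BMD and at 4.89, 4.69 and 4.79 in the ER-Hoxb8 macrophages (difference 5.88, SE 0.464, adjusted p = 0.00387). Bmpr1a, a type I receptor for bone morphogenetic proteins (BMPs), was at -1.34, -1.30 and -1.41 against 4.38, 4.41 and 4.68 (difference 5.84, SE 0.404, adjusted p = 0.00238). Rhoj, a small GTPase, was at -0.15, 0.15 and 0.33 against 5.77, 5.35 and 5.42 (difference 5.40, SE 0.355, adjusted p = 0.00238). All 3 were low in every BMD library and well expressed in every ER-Hoxb8 library.

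Other genes with very large differences depended more on single libraries. Mcoln3, an ion channel of endosomes and lysosomes, was at 5.34, 5.94 and 3.64 in the BMD and at -3.62, -1.59 and -2.97 in the ER-Hoxb8 macrophages (difference -7.70, adjusted p = 0.0101). Pde1c, which breaks down cyclic nucleotides, was at 4.18, 2.61 and 6.46 against -2.40, -3.62 and -3.62 (difference -7.62, adjusted p = 0.0204). Both were expressed in each BMD library and near the floor in each ER-Hoxb8 library. Cyp2j6, a cytochrome P450 of fatty acid metabolism, was at 4.49, 4.79 and 2.88 and at the floor in the ER-Hoxb8 macrophages, at least 173-fold lower (adjusted p = 0.00664), or at least 261-fold without BMD replicate 3. As3mt, which methylates arsenic, was at 4.38, 3.23 and 3.57 and at the floor in the ER-Hoxb8 macrophages, at least 138-fold lower (adjusted p = 0.00372). In the other direction, Sall3, a zinc finger transcription factor, was at -3.62, -3.62 and -2.42 in the BMD and at 0.97, 2.11 and 2.35 in the ER-Hoxb8 macrophages (adjusted p = 0.0234). It was the 1 called gene at the floor in every BMD library. Rasd2, a small GTPase related to Ras, was at -2.97, -1.96 and -2.57 against 2.36, 1.36 and 4.48 (difference 5.24, adjusted p = 0.0427). Without BMD replicate 1 none of these 6 calls held, with adjusted p of 0.0881 for Mcoln3, 0.119 for Pde1c, 0.073 for Cyp2j6, 0.0552 for As3mt, 0.127 for Sall3 and 0.18 for Rasd2. Of the 6 fits that each left out 1 library, Cyp2j6 and As3mt were called in 5, Mcoln3 in 4, Pde1c in 2, Sall3 in 1 and Rasd2 in 0.

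**Figure D2:**
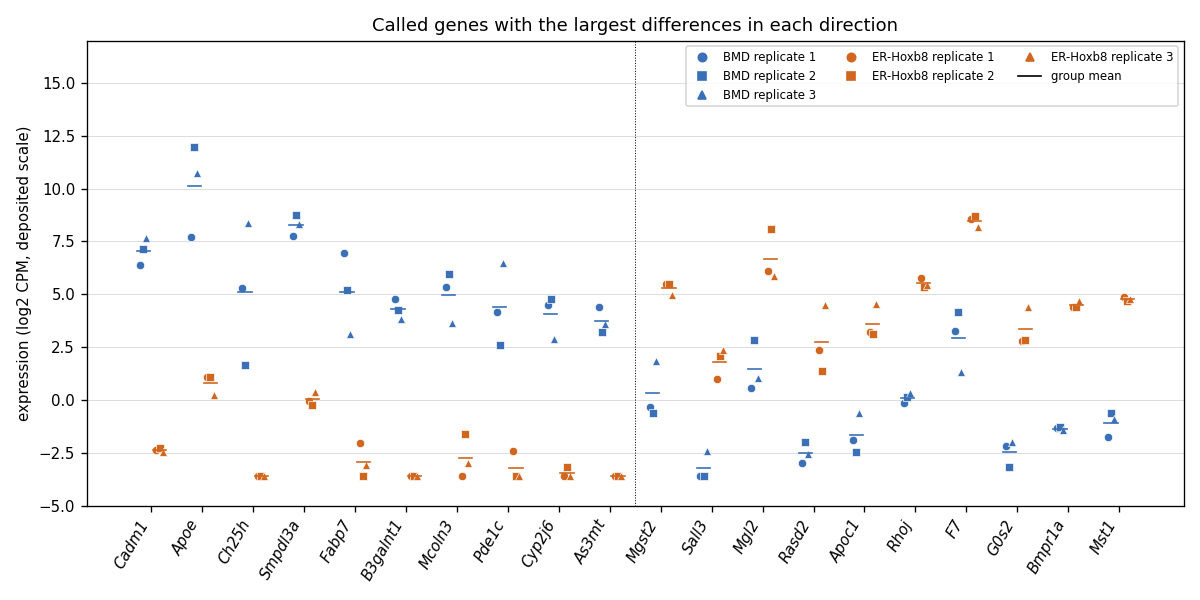
Expression (log2 CPM) in each library of the 10 called genes with the largest negative and the 10 with the largest positive difference, blue for BMD and orange for ER-Hoxb8 macrophages, with a line at each group mean; a dotted line parts both sets. In every gene the 3 orange points lie wholly below or wholly above the 3 blue points.

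Apolipoproteins moved in opposite directions within 1 gene cluster. Apoe, which carries cholesterol out of macrophages, was at 7.69, 11.95 and 10.73 in the BMD and at 1.07, 1.09 and 0.25 in the ER-Hoxb8 macrophages (difference -9.32, SE 1.00, adjusted p = 0.0108). The BMD values spread widely, yet the lowest of them lay far above the highest ER-Hoxb8 value, and the call held in all 6 fits that left out 1 library. Its neighbours Apoc1, Apoc4 and Apoc2 code for small apolipoproteins that regulate lipoprotein lipase and receptor binding, and all 3 rose. Apoc2 was at 4.54, 5.45 and 5.50 in the BMD and at 9.22, 10.51 and 9.03 in the ER-Hoxb8 macrophages (difference 4.43, adjusted p = 0.0101). Apoc1 was at -1.87, -2.44 and -0.63 against 3.20, 3.11 and 4.53 (difference 5.26, adjusted p = 0.0194). Apoc4 was at -2.35, -0.90 and -1.70 against 3.19, 1.46 and 2.24 (difference 3.95, adjusted p = 0.0499). Each of the 3 was higher in every ER-Hoxb8 library than in any BMD library. The Apoc2 call was lost without BMD replicate 1 (adjusted p = 0.0737) and without BMD replicate 2 (0.0502). Apoc1 was called without BMD replicate 3 (0.0322) and missed the limit without any other library, with adjusted p up to 0.109. Apoc4 missed it in every such fit (0.0801 to 0.19).

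On the mouse reference (RefSeq annotation of GRCm38.p6, from C57BL/6J, whereas the cells were FVB) these 4 genes follow one another on chromosome 7 with no other tested gene between them. Their starts lie 6.505 kb (Apoc2 to Apoc4), 11.4 kb (Apoc4 to Apoc1) and 6.76 kb (Apoc1 to Apoe) apart. The genes that flank the cluster, picked for their place, were not called. Clptm1 had a difference of 0.67 (adjusted p = 0.793), and beyond Apoe lay Tomm40 with -0.24 (0.853) and Pvrl2 with 2.11 (0.153). The groups overlapped in Clptm1 and Tomm40, whereas Pvrl2 was higher in every ER-Hoxb8 library.

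Smpdl3a and its neighbour Fabp7 fell together. Smpdl3a, a phosphodiesterase related to acid sphingomyelinase that is induced by sterols, was at 7.75, 8.74 and 8.33 in the BMD and at -0.07, -0.22 and 0.38 in the ER-Hoxb8 macrophages (difference -8.24, SE 0.362, adjusted p = 0.000764). Fabp7, a fatty acid-binding protein best known from brain glia, was at 6.94, 5.22 and 3.14 against -2.04, -3.62 and -3.08 (difference -8.02, adjusted p = 0.0169). Both were expressed in all BMD libraries. In all ER-Hoxb8 libraries Smpdl3a was near 1 CPM and Fabp7 far under it. Their starts are 9.62 kb apart on chromosome 10. Fabp7 was called in 2 of the 6 leave-one-out fits and missed the limit most clearly without BMD replicate 1 (adjusted p = 0.0881). The flanking genes Pkib (difference -0.67, adjusted p = 0.807) and Gcc2 (difference 0.60, adjusted p = 0.59), picked for their place, were not called.

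Across the genome, 10643 of the tested genes could be placed and formed 10622 neighbouring pairs, of which 11 had both members called, 8 in the same direction and 3 in opposite directions. All 11 were looked up after their values were seen. Besides the apolipoproteins and the Smpdl3a pair, the lectins Mgl2 and Clec10a (36.5 kb apart on chromosome 11) both rose. On chromosome 6 the germ-cell and pluripotency genes Gdf3 and Dppa3 (21.0 kb) and the glucose transporter Slc2a3 (101 kb further) all fell, with the untested Nanog between Dppa3 and Slc2a3. Dppa3 was at 1.72, 1.92 and 2.40 in the BMD macrophages and without counts in the ER-Hoxb8 macrophages, at least 41.6-fold lower (adjusted p = 0.0101). Gdf3 was at 3.63, 1.54 and 2.16 and at the floor, at least 56.2-fold lower (adjusted p = 0.0164), or at least 37.02-fold without BMD replicate 1. Also on chromosome 6, Vopp1 and the transporter Abcg2 both fell, although 832 kb and 11 untested genes separate them. The opposite pairs were Apoc1 with Apoe, Clec2i with BC064078 (105 kb, chromosome 6) and the death receptor Fas with Ch25h (183 kb, chromosome 19).

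Counts in this list and in all lists below are to be read beside the shares of all tested genes. These were 0.279% called higher, 1.19% called lower, 11.5% wholly higher and 9.36% wholly lower. The list of apolipoproteins and cholesterol handling held 23 tested genes of 25, of which 3 were called higher and 3 lower, with 5 wholly higher and 5 wholly lower. Its median of 0.10 was near that of all tested genes and was 0.36 and 0.33 without BMD replicates 1 and 2 and changed sign to -0.04 under quantile normalization, to -0.17 when BMD replicate 3 and to -0.10 when ER-Hoxb8 replicate 3 was left out. Besides the 4 clustered genes the calls included Ch25h, the enzyme that makes 25-hydroxycholesterol. It was at 5.29, 1.65 and 8.37 in the BMD macrophages and without counts in the ER-Hoxb8 macrophages, at least 357-fold lower (adjusted p = 0.0499). That bound moved with single libraries, to 1193-fold without BMD replicate 2 and 115-fold without BMD replicate 3 (computed after the values were seen). It was called in 1 leave-one-out fit (without BMD replicate 2, adjusted p = 0.0341) while the others reached up to 0.2. The list had 2 calls without BMD replicate 1, 3 without BMD replicate 2, 4 without BMD replicate 3 and 3 without each ER-Hoxb8 replicate. Cholesterol ester genes did not follow. Soat1, which esterifies cholesterol, was at 10.86, 11.32 and 9.49 against 10.59, 10.92 and 12.91, and Lipa, the lysosomal lipase, was at 12.39, 12.74 and 11.60 against 12.42, 12.55 and 13.22. Neither was called and in both the groups overlapped. The exporter Abcg1 (named after its values were seen) was at 7.77, 8.76 and 3.81 against 9.81, 8.88 and 11.55, higher in every ER-Hoxb8 library but not called (adjusted p = 0.376).

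Several genes of an X-linked family were expressed in the BMD and at the floor in the ER-Hoxb8 macrophages. The Armcx, Bex, Tceal and Cxx1 genes code for small adaptor-like proteins and proteins with armadillo repeats, many of them best known from the nervous system, and most sit in clusters on the X chromosome. Of 24 listed genes 13 were tested, 5 were called lower and 0 higher, and 11 lay wholly lower (1.19%, 0.279% and 9.36% of all tested genes). The others did not reach 1 CPM in 3 libraries, and 6 of the tested ones were at the floor in every ER-Hoxb8 library and thus passed that filter through the BMD libraries alone, which in itself lowers the median. The median difference of the 13 was -4.54, or -4.43 with the genes at the floor set to their bounds (0.02 for all tested genes), and it says nothing of the 11 genes not tested. It stayed negative under each scaling (-2.24 with log2(CPM + 1) and -4.07 under quantile normalization) and without each library (-5.37 to -4.07).

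Armcx2 was at 2.80, 2.20 and 2.44 in the BMD and at -3.13, -3.62 and -3.62 in the ER-Hoxb8 macrophages, at least 57.7-fold lower (adjusted p = 0.00849). Armcx6 was at 2.17, 2.18 and 1.43 and without counts in the ER-Hoxb8 macrophages, at least 38.98-fold lower (adjusted p = 0.0108). Tceal1, related to transcription elongation factors, was at 2.41, 1.52 and 1.33 and likewise without counts, at least 34.5-fold lower (adjusted p = 0.014). These 3 were modestly expressed in every BMD library and at the floor in every ER-Hoxb8 library. Cxx1a was at 1.77, 2.73 and 4.87 and at the floor, at least 90.5-fold lower (adjusted p = 0.0204), or at least 146-fold without BMD replicate 1 and 49.1-fold without BMD replicate 3. Its neighbour Cxx1c was at 1.54, 0.69 and 1.06 against -3.11, -3.62 and -3.62 (adjusted p = 0.0232). All 5 calls were lost without BMD replicate 1, and the list had 1 call without BMD replicate 2, 4 without BMD replicate 3, and 2, 5 and 3 without ER-Hoxb8 replicates 1, 2 and 3. The adjusted p without BMD replicate 1 ran from 0.075 for Cxx1a to 0.16 for Cxx1c.

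Uncalled tested members of the family mostly lay the same way, and in some of them 1 ER-Hoxb8 library lay nearer to the BMD level. Wbp5 was at 7.71, 8.55 and 6.99 in the BMD and at 4.58, 5.90 and 3.10 in the ER-Hoxb8 macrophages (adjusted p = 0.105). Tceal8 and Ngfrap1 (also called Bex3), both named after their values were seen, shared that pattern: Tceal8 was at 5.95, 5.87 and 5.53 against 0.28, 3.14 and -1.72, and Ngfrap1 at 5.42, 5.72 and 5.46 against 0.71, 3.44 and -0.39 (adjusted p = 0.0887 for each). In all 3 genes ER-Hoxb8 replicate 2 kept the most and ER-Hoxb8 replicate 3 the least. Armcx3 was at 6.59, 6.65 and 6.29 against 5.02, 5.17 and 6.23 (adjusted p = 0.309), wholly lower by a small margin. In Cxx1b, named after its values were seen, the spread lay in the BMD macrophages. Its values were 0.18, 3.37 and 5.22 against -3.62, -3.62 and -3.09 (adjusted p = 0.0676). The members Gprasp1 and Armcx5 (again named after their values were seen), did not follow: their differences were -0.13 and 0.42 and their groups overlapped.

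A short word recurs in some promoters of this family, and 4 of them are shown because these members were tested and hold it. The word CACGTGAC, searched on both strands, was chosen after the promoters and the values were seen. Its share among the listed genes is therefore no test of an excess. Nor are the listed promoters independent: those of Bex1 and Bex4 are nearly the same over most of their length. It occurs in the 300-base promoter of 10 of the 23 listed genes that have one, against 689 of 27025 genes in all (2.55%) and 434 of 8506 tested genes (5.1%). It contains the palindrome CACGTG (12 of 23 listed genes, 8.09% of all) and overlaps TCACGTGA (9 of 23, 1.12% of all). In 9 of the listed genes TGACG also lies within 25 bases before CACGTGAC, an arrangement in 34 genes of all (0.126%). Of the called-lower genes outside the family with a promoter sequence, 2 of 85 hold CACGTGAC. Armcx2, Cxx1a and Cxx1c were called without holding it, and 4 of the 12 tested members with a promoter sequence hold it. Capitals mark CACGTGAC or, where both strands match, the joined match. Sequences run 5′ to 3′ along the strand of the gene, from RefSeq on GRCm38.p6 (C57BL/6J reference): Armcx6 at chrX:134751370-134751669 on the minus strand, Tceal1 at chrX:136707732-136708031 on the plus strand, Ngfrap1 at chrX:136270003-136270302 on the plus strand and Tceal8 at chrX:136172202-136172501 on the minus strand. A match describes the letters in these windows and no binding was measured.
Armcx6: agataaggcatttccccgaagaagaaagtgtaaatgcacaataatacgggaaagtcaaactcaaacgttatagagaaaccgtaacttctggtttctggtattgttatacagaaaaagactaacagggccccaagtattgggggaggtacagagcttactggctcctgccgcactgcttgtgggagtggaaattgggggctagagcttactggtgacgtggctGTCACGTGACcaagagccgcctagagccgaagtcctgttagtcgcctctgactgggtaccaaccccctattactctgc
Tceal1: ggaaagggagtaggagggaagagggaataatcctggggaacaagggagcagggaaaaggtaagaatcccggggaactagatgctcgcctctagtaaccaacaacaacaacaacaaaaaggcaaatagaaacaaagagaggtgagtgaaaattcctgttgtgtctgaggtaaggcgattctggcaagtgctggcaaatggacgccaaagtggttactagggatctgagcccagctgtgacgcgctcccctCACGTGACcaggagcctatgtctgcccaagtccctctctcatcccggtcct
Ngfrap1: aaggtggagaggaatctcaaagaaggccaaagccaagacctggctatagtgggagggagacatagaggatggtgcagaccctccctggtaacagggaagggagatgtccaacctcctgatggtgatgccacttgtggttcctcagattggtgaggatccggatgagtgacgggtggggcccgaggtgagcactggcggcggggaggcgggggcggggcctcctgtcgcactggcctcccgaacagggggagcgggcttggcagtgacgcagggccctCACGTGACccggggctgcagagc
Tceal8: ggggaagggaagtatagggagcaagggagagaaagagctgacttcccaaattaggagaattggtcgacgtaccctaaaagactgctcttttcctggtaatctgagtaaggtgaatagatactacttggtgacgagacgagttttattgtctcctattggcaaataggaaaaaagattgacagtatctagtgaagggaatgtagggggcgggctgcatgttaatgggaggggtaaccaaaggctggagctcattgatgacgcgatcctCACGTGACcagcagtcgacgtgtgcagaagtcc
Armcx6 and Tceal1 were without counts in any ER-Hoxb8 library, and Ngfrap1 and Tceal8 were reduced but present there. All carry the word on the strand of the gene near the start, each preceded by TGACG. Armcx6 has 2 matches, 1 on each strand, so its word has no single orientation.

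**Figure D3:**
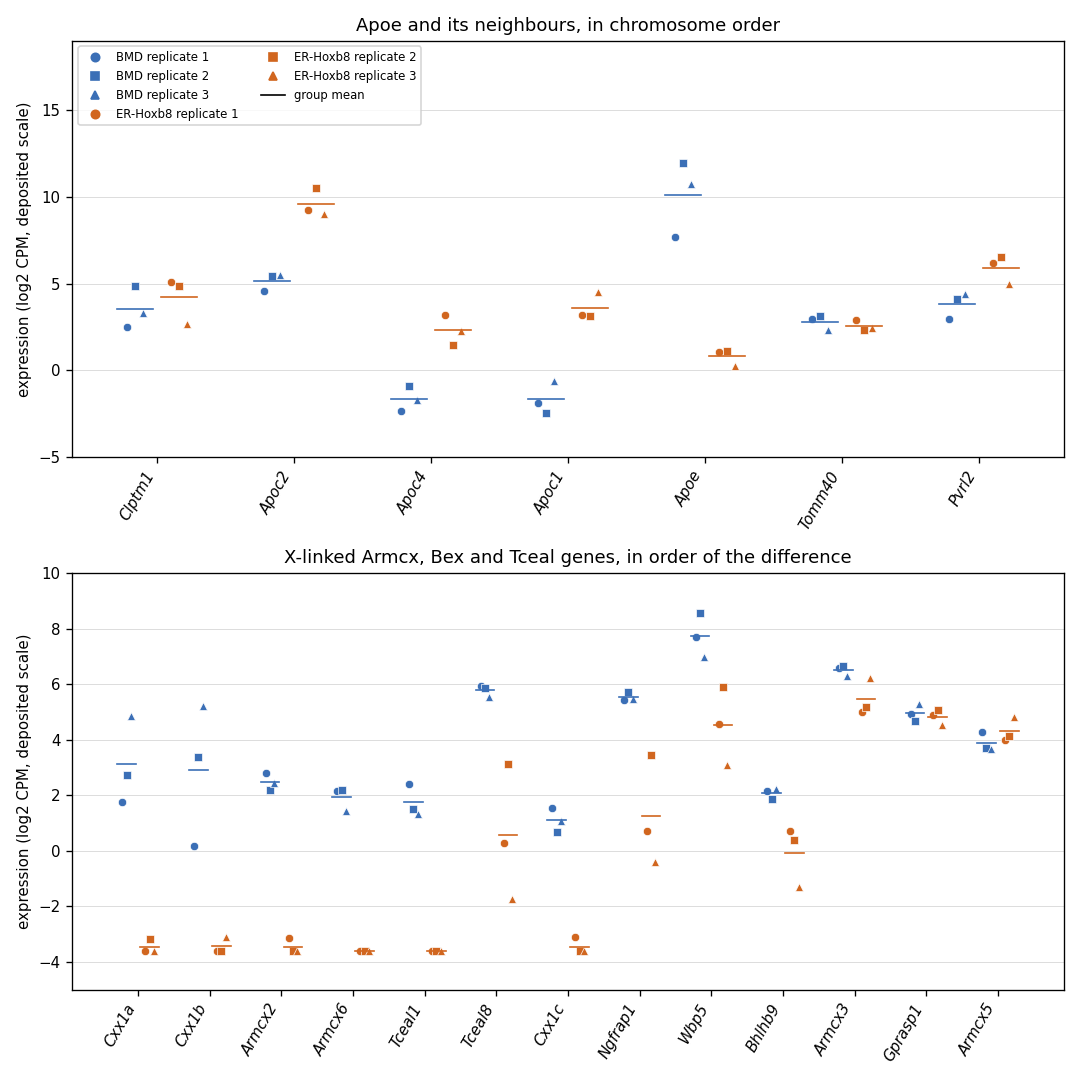
Expression (log2 CPM) per library, with a line at each group mean, of Apoe with its neighbours in chromosome order (top) and of the 13 tested X-linked Armcx, Bex, Tceal and Cxx1 genes in order of their difference (bottom). Apoe is low in the 3 ER-Hoxb8 libraries while Apoc2, Apoc4 and Apoc1 are high, and 11 of the 13 X-linked genes lie wholly lower in the ER-Hoxb8 macrophages.

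The lectins Mgl2, Clec10a and Clec2i rose in the ER-Hoxb8 macrophages. C-type lectins bind sugars on pathogens and dying cells. Of 17 tested members 3 were called higher and 0 lower (0.279% and 1.19% of all tested genes). Wholly higher lay 4 and wholly lower 2 (11.5% and 9.36% of all). Mgl2, a galactose-type lectin, was at 0.56, 2.86 and 1.02 in the BMD and at 6.10, 8.11 and 5.86 in the ER-Hoxb8 macrophages (difference 5.21, adjusted p = 0.0302). Its relative Clec10a was at 3.57, 5.28 and 3.48 against 7.02, 8.15 and 8.31 (difference 3.72, adjusted p = 0.0307). Clec2i was at 3.27, 3.36 and 2.11 against 4.96, 5.46 and 5.85 (difference 2.51, adjusted p = 0.0499). All ER-Hoxb8 libraries were above all BMD libraries in these 3 genes. The calls were fragile: 1 (Clec10a, adjusted p = 0.044) remained without BMD replicate 2 and 0 remained without any other library (adjusted p of 0.053 to 0.16). The list median was 0.25 and ran from -0.03 without BMD replicate 3 to 0.70 without ER-Hoxb8 replicate 3. Uncalled, the pattern receptor Clec4n was at 5.83, 7.79 and 6.02 against 9.34, 9.87 and 8.14 (adjusted p = 0.14), and the scavenger lectin Colec12 was at 8.73, 8.54 and 9.88 against 8.79, 8.87 and 6.50.

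Other surface receptors of innate immunity held single members that fell. Among 21 tested Toll-like receptors and partners 1 was called lower and 0 higher, with 4 wholly lower, 0 wholly higher and a median of -0.18 (-0.45 without ER-Hoxb8 replicate 1, near 0 without ER-Hoxb8 replicate 3). The called gene was Ly86 (MD-1), the secreted partner of the receptor Cd180, at 5.05, 4.80 and 4.82 in the BMD and at -1.20, -1.94 and -2.69 in the ER-Hoxb8 macrophages (difference -6.83, SE 0.521, adjusted p = 0.00372). Cd180 itself, named after its values were seen, was at 6.08, 5.92 and 7.17 against 6.25, 6.16 and 6.20 (adjusted p = 0.877). So the ER-Hoxb8 macrophages had the receptor at the BMD level and hardly any transcript of its partner. Tlr4 was at 7.36, 7.27 and 7.62 against 8.10, 7.71 and 6.33, and its groups overlapped. Ly86 lost its call without BMD replicate 1 (adjusted p = 0.0552) and kept it without each other library. In the MS4A family of tetraspanning proteins, 1 of 7 tested genes was called, lower, 3 lay wholly lower and the median was -1.87, which became -0.99 without ER-Hoxb8 replicate 3. Ms4a6c was at 7.44, 6.41 and 6.80 against 3.10, 2.67 and 0.21 (difference -4.89, adjusted p = 0.0309), a call that held only without ER-Hoxb8 replicate 3 (0.0201) among the leave-one-out fits. Ms4a7 was at 10.64, 11.23 and 9.04 against 8.98, 9.64 and 6.74 and was not called.

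Scavenger and engulfment receptors mostly lay lower without passing the test. Of 22 tested genes 1 was called lower and 0 higher (1.19% and 0.279% of all tested genes), and the median was -0.76. Wholly lower lay 6 and wholly higher 0 (9.36% and 11.5% of all). Cd5l, a secreted scavenger protein of macrophages, was at 3.43, 3.07 and 2.77 in the BMD and at -0.88, 0.09 and 0.00 in the ER-Hoxb8 macrophages (difference -3.35, adjusted p = 0.0252), and it missed the limit in each leave-one-out fit (0.0542 to 0.163). Axl and Stab1, which bind dying cells and modified lipoproteins, are named after their values were seen. Axl was at 7.68, 8.25 and 7.58 against 4.82, 6.42 and 5.51 (adjusted p = 0.0626) and Stab1 at 8.86, 7.97 and 8.26 against 5.76, 7.19 and 5.25 (adjusted p = 0.104), both wholly lower. Msr1, a scavenger receptor of the identity list, was at 9.77, 8.48 and 9.72 against 8.49, 8.68 and 7.38 and overlapped. Of 8 Fc receptors 0 were called, 1 lay wholly higher and 0 wholly lower (median -0.30, or -0.51 without BMD replicate 2, -0.15 without BMD replicate 1 and -0.07 when ER-Hoxb8 replicate 3 was left out). Fcgrt, the neonatal Fc receptor that recycles immunoglobulin, was that one, at 6.27, 7.19 and 5.57 against 8.48, 8.14 and 7.50 (adjusted p = 0.173). Of 6 Siglecs, which bind sialic acid, 0 were called and 0 lay apart (1.47% and 20.8% of all tested genes), which for 6 genes is no result. The counts of 0 calls in this paragraph and the following ones stand beside 158 of the 10764 tested genes called (1.47%). At that share 0 calls in lists of these sizes are no result. A looser limit, an unadjusted p below 0.05 in limma, was met by 1327 genes.

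Antigen presentation held 1 called gene in culture. Of 8 tested MHC class II genes 1 was called lower, H2-Aa, at 3.60, 4.20 and 3.64 in the BMD and at -1.78, -1.17 and 0.50 in the ER-Hoxb8 macrophages (difference -4.63, adjusted p = 0.0248). Its partner chain H2-Ab1 (named after its values were seen) was at 2.98, 4.62 and 3.53 against -1.78, -3.62 and 0.02, just outside the limit (adjusted p = 0.0501), and the invariant chain Cd74 was at 7.03, 7.55 and 6.14 against 5.30, 6.29 and 5.80 and overlapped. The list median of -0.01 became 0.29 under quantile normalization and ran from -0.34 (without ER-Hoxb8 replicate 3) to 0.39 (without BMD replicate 3 or ER-Hoxb8 replicate 1). H2-Aa kept its call only without ER-Hoxb8 replicate 3 (0.0201) and reached 0.137 without BMD replicate 1. Of 22 MHC class I genes 0 were called, 0 lay wholly higher and 7 wholly lower (median -0.23, or -0.50 without BMD replicate 1 and -0.11 without BMD replicate 3). B2m, the shared light chain, was at 10.44, 10.15 and 10.78 against 10.02, 9.83 and 9.56 (adjusted p = 0.391). Interferon-stimulated genes gave 0 calls of 35, with 7 wholly higher, 5 wholly lower and a median of 0.21 (0.05 without BMD replicate 2).

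Secreted signals of inflammation gave no call. Of 17 cytokines and mediators 0 were called and 3 lay wholly higher and 3 wholly lower (median -0.47, which became -0.03 without BMD replicate 2, 0.25 when BMD replicate 3 and 0.21 when ER-Hoxb8 replicate 3 was left out). Of 11 chemokines 0 were called, with 1 wholly higher and 2 wholly lower (median -0.07, from -0.56 without BMD replicate 2 to 0.32 without ER-Hoxb8 replicate 3). Tnfsf12 (TWEAK) and Cxcl16, named after their values were seen, came close to the limit: Tnfsf12 was at 6.16, 7.28 and 5.07 in the BMD and at 2.97, 3.27 and 1.82 in the ER-Hoxb8 macrophages (adjusted p = 0.0545). Cxcl16 was at 6.44, 7.54 and 7.21 against 3.07, 4.74 and 4.66 (adjusted p = 0.0524). Both were lower in every ER-Hoxb8 library. The growth factor Igf1 (7.71, 7.61 and 7.08 against 8.05, 9.13 and 8.87, adjusted p = 0.19) and the chemokine Ccl6 (8.77, 9.19 and 6.94 against 10.54, 9.97 and 9.76, adjusted p = 0.276) were higher in every ER-Hoxb8 library and were not called. Of 14 chemokine receptors 0 were called, 1 lay wholly higher and 5 wholly lower (median -0.92, which shrank to -0.18 without ER-Hoxb8 replicate 3, to -0.30, -0.49 and -0.59 without BMD replicates 1, 2 and 3). Among them C5ar1, a receptor for a complement fragment, was at 9.82, 9.34 and 10.01 against 8.48, 8.85 and 6.23 (adjusted p = 0.329), lowest in ER-Hoxb8 replicate 3.

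Complement and coagulation genes split. Of 16 complement genes 0 were called, 2 lay wholly higher and 6 wholly lower, and the median of -0.73 shrank to -0.23 without ER-Hoxb8 replicate 3 and grew to -1.24 without BMD replicate 2 and -1.14 when ER-Hoxb8 replicate 2 was left out. The C1q subunits, named after their values were seen, were lowest in ER-Hoxb8 replicate 3: C1qc was at 8.31, 8.52 and 7.79 in the BMD and at 7.79, 7.75 and 1.47 in the ER-Hoxb8 macrophages, and C1qb at 8.46, 7.30 and 7.30 against 4.57, 5.49 and -1.93. ER-Hoxb8 replicates 1 and 2 were close to the BMD level in C1qc and below it in C1qb. In coagulation and plasminogen genes 2 of 17 were called higher and 0 lower, 2 lay wholly higher and 5 wholly lower, and the median was -0.73 (-0.23 without BMD replicate 3). The called genes were Mst1, a relative of plasminogen in sequence, and F7, coagulation factor VII, at 3.25, 4.18 and 1.32 against 8.57, 8.68 and 8.17 (difference 5.56, adjusted p = 0.0158). F7 was called in 3 leave-one-out fits and missed the limit without BMD replicate 1 (0.0882), ER-Hoxb8 replicate 1 (0.0584) and ER-Hoxb8 replicate 2 (0.0526). The anticoagulant Pros1, named after its values were seen, was at 6.49, 6.48 and 6.90 against 3.06, 4.76 and 0.27 and was not called (adjusted p = 0.162).

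Growth factor and BMP pathways changed at single receptors. In the TGF-beta and BMP list of 28 tested genes, Bmpr1a rose and Eng fell, 1 lay wholly higher and 8 wholly lower, and the median was -0.42. Eng, the co-receptor endoglin, was at 3.58, 4.87 and 5.68 in the BMD and at -2.02, -0.34 and 0.29 in the ER-Hoxb8 macrophages (difference -5.40, adjusted p = 0.0252). It kept its call only without ER-Hoxb8 replicate 3 (0.0435) and reached 0.114 without BMD replicate 2. The BMP target genes Id2 and Id3, picked after their values were seen, did not follow the receptor upward. Id3 was at 8.04, 7.20 and 8.28 against 1.60, 4.86 and -2.18 (adjusted p = 0.139) and Id2 at 8.33, 8.39 and 9.71 against 6.38, 6.31 and 7.27 (adjusted p = 0.0836), both wholly lower and not called. Of 9 growth factor receptors of myeloid cells 1 was called, lower: Il3ra, the binding chain for interleukin 3, at 3.21, 3.81 and 3.65 against -0.64, -3.62 and -3.62 (difference -6.18, adjusted p = 0.0248). It kept its call only without ER-Hoxb8 replicate 1 (0.0206) and reached 0.134 without BMD replicate 1. Its signalling partner Csf2rb was at 7.90, 7.77 and 7.42 against 7.66, 7.48 and 7.55, and Csf1r at 11.39, 10.69 and 11.73 against 10.78, 10.78 and 8.51. Neither was called, and Csf1r was lowest in ER-Hoxb8 replicate 3.

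Few stem and progenitor genes were expressed highly enough to be tested. Of 21 listed stem and progenitor genes 6 were tested, 1 was called lower and 0 higher (0.279% of all tested genes were called higher, so that 0 of 6 is no result), and the median was -2.06 (-1.15 without BMD replicate 3). Meis1, a homeodomain protein named after its values were seen, was at 1.498, 0.74 and 1.59 in the BMD and at -1.84, -1.53 and -1.85 in the ER-Hoxb8 macrophages, wholly lower but outside the limit (adjusted p = 0.0596). The list had no call without BMD replicate 1 or BMD replicate 2, and 1 without each other library. The list summed to 148, 72.9 and 323 CPM in the BMD and 76.6, 67.5 and 27.6 CPM in the ER-Hoxb8 macrophages. Myc was the most abundant by its mean over the 6 libraries, but in BMD replicate 3 Cd34 was higher (7.34 against 7.05, log2 CPM). Of 24 Hox genes 0 passed the filter on low values, 12 were at the floor in all 6 libraries, and their sum was 2.58, 3.23 and 7.51 CPM against 2.39, 3.89 and 2.77 CPM. Hoxb8 was without counts in the BMD libraries and at -0.27, -1.47 and -3.62 in the ER-Hoxb8 libraries, below 1 CPM in each. Of 31 myeloid transcription factors 0 were called, with 2 wholly higher and 7 wholly lower (median -0.14, or -0.25 without ER-Hoxb8 replicate 2 and -0.01 without BMD replicate 2). Klf6 was at 8.13, 8.49 and 7.52 against 8.04, 7.90 and 7.55, and its groups overlapped.

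Granule genes of neutrophils lay higher in the ER-Hoxb8 macrophages, although 1 passed the test. Of 14 tested genes 1 was called higher and 0 lower (0.279% and 1.19% of all tested genes). Wholly higher lay 6 and wholly lower 0 (11.5% and 9.36% of all), and the median was 1.59. It was 0.39 without BMD replicate 3, whose granule genes were the lowest, 2.10 under quantile normalization and 0.94 with log2(CPM + 1). Mmp9, a gelatinase stored in granules, was at 1.39, 1.68 and -0.07 in the BMD and at 5.77, 4.54 and 5.93 in the ER-Hoxb8 macrophages (difference 4.41, adjusted p = 0.0209). It was called without BMD replicate 3 (0.0374) and ER-Hoxb8 replicate 2 (0.0369) and in no other leave-one-out fit (up to 0.104). Nearly all of the summed level, 51146, 42964 and 33580 CPM in the BMD and 59859, 52260 and 56647 CPM in the ER-Hoxb8 macrophages, was lysozyme (Lyz2), which macrophages express themselves. The defining markers Ly6g and Stfa2l1 were at the floor in all 6 libraries. What part such cells have in the result was not tested.

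Among adhesion genes, Cadm1 and Vcam1 fell. Of 25 tested integrins and adhesion molecules 2 were called lower (Cadm1 and Vcam1) and 0 higher, with 1 wholly higher and 6 wholly lower and a median of -0.56 that reached -0.98 without ER-Hoxb8 replicate 2. Vcam1, a vascular and macrophage adhesion molecule, was at 4.66, 4.93 and 2.76 in the BMD and at -2.27, -2.35 and -2.41 in the ER-Hoxb8 macrophages (difference -6.46, adjusted p = 0.0101), and it lost the call without BMD replicate 1 (0.0881) and BMD replicate 2 (0.0528). The tetraspanin Cd81 was the gene wholly higher, at 9.34, 9.55 and 10.12 against 11.06, 10.78 and 10.64 (adjusted p = 0.145), and Itgb2 stayed level at 11.17, 11.03 and 10.72 against 11.13, 11.01 and 10.95. The small GTPase Rhoc was at 5.69, 5.77 and 5.02 against 2.55, 1.76 and 3.43 (difference -2.91, adjusted p = 0.0414), a call that remained only without ER-Hoxb8 replicate 3 (0.0331) among the leave-one-out fits. Of 19 thymosins and S100 proteins 2 were called lower and 0 higher, 1 lay wholly higher and 3 wholly lower (median -0.45, or -0.68 without BMD replicate 2, -0.23 without BMD replicate 3 and -0.14 when ER-Hoxb8 replicate 3 was left out). Tmsb10, which binds actin monomers, was at 9.07, 8.98 and 9.45 against 6.63, 6.63 and 5.91 (difference -2.78, SE 0.279, adjusted p = 0.00955), among the better expressed called genes, and lost its call without BMD replicate 1 alone (0.0747). S100a6 was at 7.22, 6.28 and 7.98 against 2.88, 4.68 and 2.58 (difference -3.78, adjusted p = 0.0487), and it was called only without ER-Hoxb8 replicate 2 (0.0279). Of 15 matrix proteases and inhibitors Mmp9 alone was called, 1 lay wholly higher and 4 wholly lower (median -0.32, from -0.76 without ER-Hoxb8 replicate 2 to -0.05 without ER-Hoxb8 replicate 3). Mmp12, macrophage elastase, was at 12.46, 13.06 and 9.12 against 9.67, 9.21 and 10.58, with BMD replicate 3 lowest.

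Calls in metabolic pathways were single enzymes and carriers. In fatty acid binding, storage and oxidation 26 genes were tested, G0s2 rose and Fabp7 fell, 5 lay wholly higher and 1 wholly lower, and the median was 0.22 (0.42 without BMD replicate 2, -0.01 without BMD replicate 3). G0s2, an inhibitor of triglyceride lipase, was at -2.17, -3.18 and -1.97 in the BMD and at 2.81, 2.83 and 4.40 in the ER-Hoxb8 macrophages (difference 5.79, adjusted p = 0.014), and it missed the limit without BMD replicate 1 (0.0881), BMD replicate 2 (0.0546) and ER-Hoxb8 replicate 1 (0.053). Of 25 glycolysis genes 1 was called lower, Slc2a3, at 4.26, 3.43 and 4.74 against 0.74, -0.63 and -1.10 (difference -4.47, adjusted p = 0.0234, called only without ER-Hoxb8 replicate 1, 0.0376, among the leave-one-out fits). Glycolysis had a median of -0.18 that turned to 0.27 without BMD replicate 3 and was -0.30 and -0.31 without BMD replicates 1 and 2, with 1 gene wholly higher and 4 wholly lower. Of 14 genes of arginine and polyamine metabolism 1 was called lower, the arginine transporter Slc7a2, at 6.60, 6.97 and 6.49 against 4.58, 4.67 and 4.28 (difference -2.17, SE 0.250, adjusted p = 0.0137, and 0.0898 without BMD replicate 1, 0.0591 without BMD replicate 2 and 0.053 with ER-Hoxb8 replicate 1 left out). This list had 2 wholly higher and 5 wholly lower and a median of -0.75 (-0.35 without BMD replicate 3). Of 18 iron and haem genes 1 was called lower, the transferrin receptor Tfrc, at 6.95, 7.53 and 6.75 against 5.57, 4.91 and 4.35 (difference -2.14, adjusted p = 0.0499, and 0.0584 to 0.19 in the leave-one-out fits). The ferritin heavy chain Fth1 (10.08, 13.73 and 13.89 against 12.80, 12.36 and 12.67) overlapped, and the iron list had 0 wholly higher, 5 wholly lower and a median of -0.04 (from -0.26 without BMD replicate 1 to 0.05 without BMD replicate 2). Of 33 glutathione and antioxidant genes 1 was called higher, Mgst2, a membrane-bound glutathione transferase, at -0.32, -0.60 and 1.86 against 5.48, 5.51 and 4.97 (difference 5.01, adjusted p = 0.0209, called only without BMD replicate 3, 0.00865, among the leave-one-out fits). Its list split evenly, with 4 wholly higher and 4 wholly lower, and its median of 0.14 changed sign without BMD replicate 1, BMD replicate 3 or ER-Hoxb8 replicate 3 (-0.04, -0.08 and -0.12).

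Lists of lysosomal and respiratory genes held few calls. Of 36 lysosomal genes 0 were called, 18 had a higher and 18 a lower mean, and the median was -0.01 (from -0.17 without BMD replicate 3 to 0.06 without BMD replicate 2). Of 14 cathepsins 1 was called lower: Ctsf, at 1.70, 2.96 and 3.05 in the BMD and at -3.62, -1.22 and -2.49 in the ER-Hoxb8 macrophages (difference -5.01, adjusted p = 0.0343, called only without ER-Hoxb8 replicate 2, 0.0436, among the leave-one-out fits). The major cathepsin Ctsb was at 15.38, 15.52 and 14.19 against 15.15, 14.78 and 15.74, so the groups overlapped, and the list median was -0.04 (from -0.22 without BMD replicate 3 to 0.13 without BMD replicate 1). Of 39 genes of oxidative phosphorylation 0 were called, with 6 wholly higher and 0 wholly lower (median -0.03, from -0.19 without ER-Hoxb8 replicate 1 to 0.08 without BMD replicate 3). Of 45 ribosomal protein genes 0 were called, 3 lay wholly higher and 4 wholly lower, and 37 had a lower mean (median -0.27, or -0.45 without BMD replicate 2 and -0.04 without BMD replicate 3). The unfolded protein response (20 tested), the amino acid stress response (23) and fatty acid synthesis (13) also gave 0 calls, with medians of -0.14, 0.03 and -0.26. These changed sign too, to 0.03 without BMD replicate 3 for the first, to -0.59 without ER-Hoxb8 replicate 3 for the second and to 0.33 without that same library for fatty acid synthesis. Immediate early genes gave 0 calls of 17 (median -0.64, or -0.41 without BMD replicate 2), imprinted genes 0 of 9 (median 0.27, or -0.17 without ER-Hoxb8 replicate 3) and genes of the sex chromosomes 0 of 4 (median -0.10). Among 21 targets of p53 1 was called higher and 0 lower, with 5 wholly higher, 0 wholly lower and a median of 0.47 (0.77 without ER-Hoxb8 replicate 3 and 0.76 without BMD replicate 3). It was the death receptor Fas, at 2.35, 2.20 and 2.53 against 4.77, 5.36 and 5.50 (difference 2.85, adjusted p = 0.014, and 0.0882 without BMD replicate 1, 0.0591 without BMD replicate 2 and 0.0596 with ER-Hoxb8 replicate 2 left out).

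The medians of sterol synthesis and cell division moved with single libraries. Of 24 sterol synthesis genes 0 were called, 22 had a lower mean in the ER-Hoxb8 macrophages and 1 lay wholly higher, with a median of -0.58 that became -0.17 without ER-Hoxb8 replicate 3 and -0.93 without BMD replicate 3. Their mean level was 6.59, 6.48 and 5.70 in the BMD and 6.28, 5.97 and 4.78 in the ER-Hoxb8 macrophages, lowest in replicate 3 of each group. Msmo1, an enzyme of the pathway, was at 8.57, 8.65 and 7.59 against 8.17, 7.73 and 6.45. Of 30 genes of mitosis 0 were called and 28 had a higher mean, but 0 lay apart. The median of 0.62 turned to -0.29 without BMD replicate 2, fell to 0.03 and 0.14 without ER-Hoxb8 replicates 1 and 2 and reached 1.75 without BMD replicate 3 and 1.55 when ER-Hoxb8 replicate 3 was left out. Of 30 DNA replication genes 0 were called and 26 had a lower mean, with a median of -0.44 that was -1.19 without BMD replicate 2, 0.15 without BMD replicate 3 and 0.11 with ER-Hoxb8 replicate 3 left out. The 13 macrophage identity genes gave 0 calls, 1 wholly higher and a median of -0.53 that became 0.06 without BMD replicate 3 or without ER-Hoxb8 replicate 3 and -0.09 without BMD replicate 1. Among 53 lists with a tested member the median changed sign in 24 when 1 library was left out and in 2 (apolipoproteins and MHC class II) under another scaling.

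**Figure D4:**
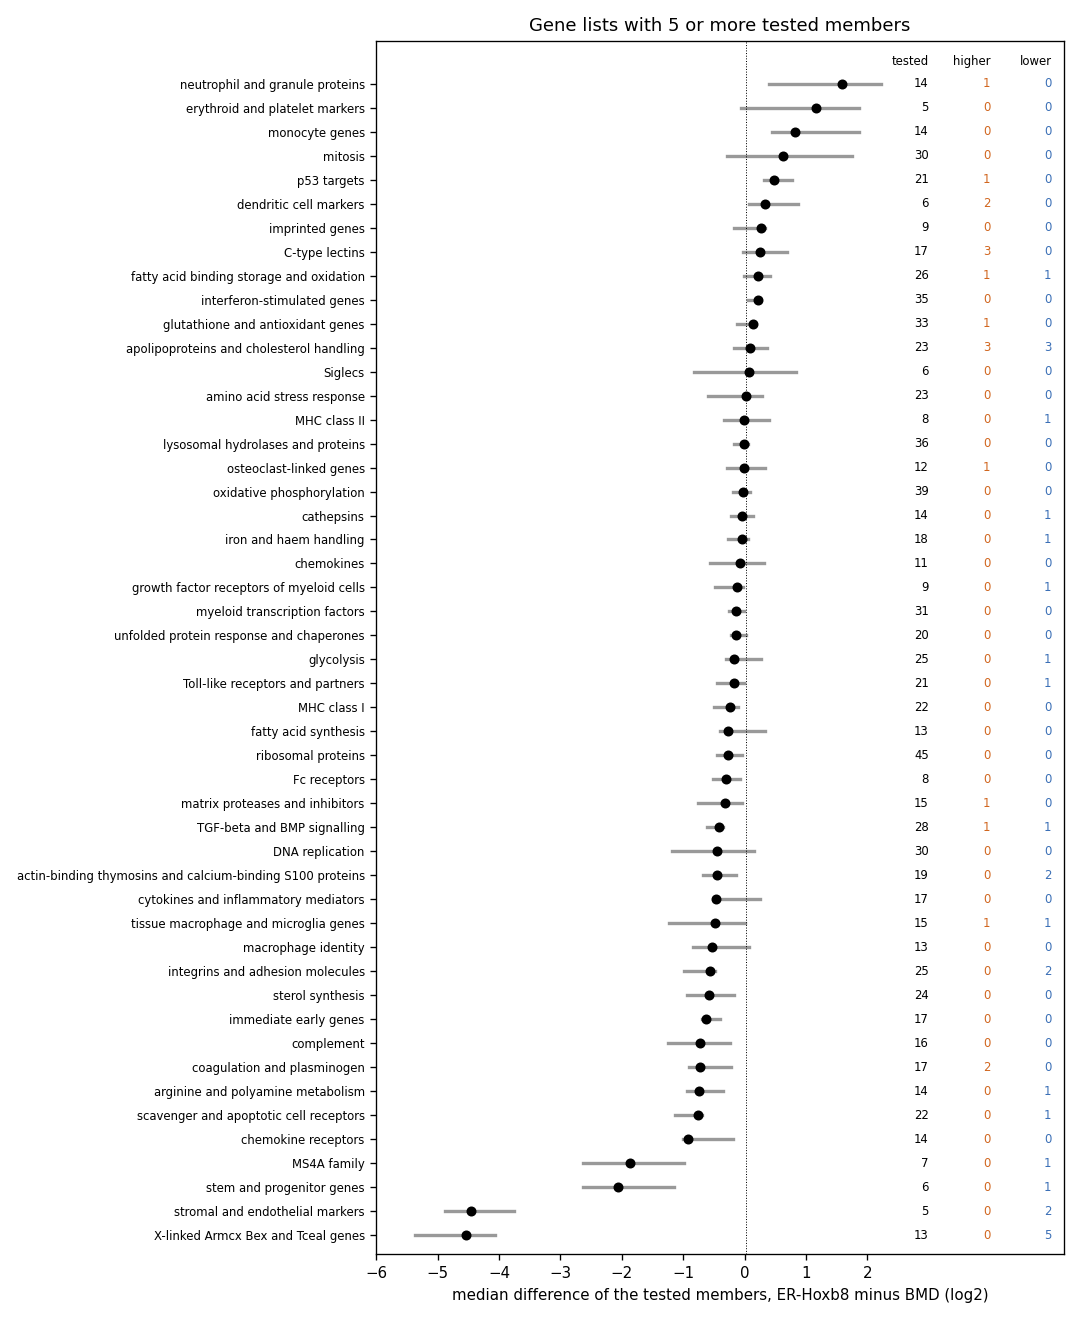
Median difference (ER-Hoxb8 minus BMD, log2) of the tested members of each list shown, all with 5 or more of them, with a grey line from the lowest to the highest median when 1 library is left out, and on the right the number tested, called higher and called lower; the dotted line is the median of all tested genes. The X-linked family lies at -4.54 over 13 tested genes of 24, of which 6 passed the filter through the BMD libraries alone, and grey lines that cross 0 mark lists whose direction changes with 1 library.

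Markers of stromal, lymphoid, erythroid and platelet cells had low sums in both cultures, and their part in the results was not tested. Of 18 stromal and endothelial markers 5 were tested and 2 were called lower, Vcam1 and Kdr (the VEGF receptor, 1.42, 2.67 and 3.74 in the BMD and -2.70, -1.69 and -3.62 in the ER-Hoxb8 macrophages, adjusted p = 0.0328, and 0.0554 to 0.131 in the leave-one-out fits), with 4 wholly lower. The median of the 5 was -4.45, or -1.97 with log2(CPM + 1), and it says nothing of the markers not tested. Vcam1 and Kdr were under 1 CPM in every ER-Hoxb8 library. They passed the filter through the BMD libraries alone, which in itself lowers the median. The 18 markers summed to 66.0, 64.4 and 78.1 CPM in the BMD and 13.1, 24.6 and 13.5 CPM in the ER-Hoxb8 macrophages. The most abundant by its mean over the 6 libraries was Fn1, with 24.4, 7.69 and 36.3 CPM against 3.51, 6.50 and 3.07 CPM, and Col3a1, Lum and Tek were at the floor in all 6. Of 20 markers of T, B and NK cells 4 were tested and 0 called, and they summed to 45.7, 71.2 and 18.7 CPM against 46.9, 109 and 27.3 CPM. Ighm was the most abundant over all 6 libraries, but in BMD replicate 2 it was 2.70 CPM. Cd4, at 3.99, 5.92 and 0.57 against -1.15, -0.95 and -1.89, lay wholly lower and was not called (adjusted p = 0.168). The T cell markers Cd3e, Trbc1 and Trbc2 and the NK marker Klra8 were at the floor throughout. Of 15 erythroid and platelet markers 5 were tested and 0 called, with a sum of 41.4, 12.6 and 90.4 CPM against 20.04, 8.42 and 8.88 CPM, and Hbb-bt and Gp1bb at the floor. The most abundant over all 6 libraries was Pf4, at 33.2, 2.17 and 89.5 CPM against 1.35, 0.992 and 0.260 CPM (adjusted p = 0.218), a small part of the sum in BMD replicate 2 and the ER-Hoxb8 libraries.

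Mast cell and basophil markers gave 0 calls of 2 tested out of 13, and their sum was 11.96, 8.23 and 8.11 CPM in the BMD and 22.6, 11.8 and 8.65 CPM in the ER-Hoxb8 macrophages. Prss34 was the most abundant of them by its mean over the 6 libraries but was at 0.043 CPM in BMD replicate 3, and Fcer1a, Gata2, Cma1, Mcpt4 and Tpsb2 were at the floor in all 6 libraries. Among 18 dendritic cell markers 6 were tested, and the 2 called higher were the lectins Mgl2 and Clec10a, which macrophages also express. The dendritic list summed to 1197, 1697 and 1054 CPM against 1309, 1333 and 1247 CPM, with Sirpa the most abundant and Ccl17 at the floor.

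Genes of monocytes and of specialised macrophages were mixed. Of 14 tested monocyte genes 0 were called, with 4 wholly higher, 2 wholly lower and a median of 0.81 (0.44 without ER-Hoxb8 replicate 2, 1.86 when ER-Hoxb8 replicate 3 was left out). They summed to 400.5, 163 and 1515 CPM in the BMD and 639.9, 2731 and 117 CPM in the ER-Hoxb8 macrophages. Ly6c1 was at the floor in all 6 libraries. F13a1 was the most abundant by its mean over the 6 libraries, at 49.4, 34.6 and 1127 CPM against 451, 2314 and 65.6 CPM. That rank rested on BMD replicate 3 and ER-Hoxb8 replicate 2. In BMD replicates 1 and 2 Itgal of the same list was higher, at 8.03 and 6.43 (log2 CPM). The chemokine receptor Ccr2 was at 2.08, 1.38 and 2.01 against 3.13, 6.71 and 4.45, higher in every ER-Hoxb8 library but not called (adjusted p = 0.213). Of 15 genes of tissue macrophages and microglia Sall3 rose and Cd5l fell, with 2 wholly higher, 4 wholly lower and a median of -0.48 that was 0.00 without ER-Hoxb8 replicate 3, -1.22 without BMD replicate 3 and -1.13 when ER-Hoxb8 replicate 2 was left out. Their sum was 1373, 1258 and 1408 CPM against 1827, 1528 and 437 CPM, with Clec4f, Lyve1 and Car4 at the floor. Of 12 osteoclast-linked genes Mmp9 alone was called, 1 lay wholly higher and 3 wholly lower, and the median of -0.02 changed sign without BMD replicate 2 (0.14), ER-Hoxb8 replicate 2 (0.34) or ER-Hoxb8 replicate 3 (0.21). The osteoclast list summed to 1041, 1279 and 356 CPM against 982, 745 and 1978 CPM. Its most abundant gene by its mean over the 6 libraries, the proton pump subunit Atp6v0d2, was at 9.18, 9.47 and 2.70 against 8.98, 8.20 and 10.51, lowest in BMD replicate 3, and Calcr was at the floor.

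A set of genes was on in BMD macrophages and off in ER-Hoxb8 macrophages, and 0 were the other way with all 6 libraries. On meant more than 2 CPM in all 3 libraries of a group and off meant at the floor in all 3 of the other. This held for 21 genes, all of them called lower, and 10 of them were at -3.62 in every ER-Hoxb8 library. They included Armcx2, Armcx6, Cxx1a and Tceal1 of the X-linked family, the enzymes As3mt, B3galnt1, Ch25h and Cyp2j6, and, named after their values were seen, Dppa3, Fkbp9, Gdf3, Gpr126, Mansc1, Nynrin, Paqr8, Pvrl1, Rab39, Slc30a4, Zcchc3 and Zfp2. The bounds ran from at least 22.8-fold lower for the adhesion receptor Gpr126 (1.13, 1.29 and 1.09 in the BMD macrophages) to at least 357-fold lower for Ch25h (1193-fold without BMD replicate 2 and 115-fold without BMD replicate 3). With off set at 0.5 CPM the count was 67 (8 higher and 59 lower), with on at 1 CPM it was 39 (1 higher and 38 lower), and with on at 5 CPM it was 5, all lower. Leaving out 1 library at a time, a check added after the values were seen, gave 27, 33 and 29 genes without BMD replicates 1, 2 and 3 and 35, 36 and 25 without ER-Hoxb8 replicates 1, 2 and 3. Of these, 1 without BMD replicate 1, 2 without BMD replicate 2 and 1 when ER-Hoxb8 replicate 1 was left out were on in the ER-Hoxb8 and off in the BMD macrophages.

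The same 21 genes were looked up in other groups of the series, in part normalized apart from these libraries, so that their levels serve as a description and were not tested. In the ER-Hoxb8 progenitors 15 of the 21 were at the floor in all 3 libraries and 0 exceeded 1 CPM in all 3. In ER-Hoxb8 cells after 4 days of differentiation 12 were at the floor and again 0 exceeded 1 CPM throughout. In bone marrow progenitors 2 were at the floor and 15 exceeded 1 CPM in all 3 libraries, and in bone marrow monocytes these counts were 3 and 10. Armcx2 was at 3.92, 3.91 and 4.08 in bone marrow progenitors and at -4.34, -3.17 and -4.34 in ER-Hoxb8 progenitors. Outside the 21, Cadm1 was at 4.00, 4.70 and 4.54 against -2.43, -2.88 and -3.01, and Gnb4 at 6.55, 5.88 and 6.06 against -2.92, -1.38 and -0.90. Among genes called higher, Bmpr1a was at -1.29, -0.56 and -2.53 in bone marrow progenitors and at 4.85, 4.28 and 4.34 in ER-Hoxb8 progenitors, and Apoc2 at 2.44, 2.58 and 2.49 against 8.06, 9.93 and 6.04. The genes in this paragraph were chosen after their values were seen, and not all genes agreed. Ch25h, lower in the ER-Hoxb8 macrophages, was at the floor in all 3 bone marrow progenitor libraries and at -0.11, -3.16 and -0.22 in ER-Hoxb8 progenitors. Dppa3 was without counts in bone marrow progenitors.

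Many of the differences seen in culture were also found between BMD and ER-Hoxb8 cells taken back from the brain. Of the 10764 genes 177 (1.64%) were called higher and 373 (3.47%) lower in ER-Hoxb8 cells from brain. Of the 158 genes called in culture 61 (38.6%) were called in the same direction in brain, 7 higher and 54 lower, and 5 in the opposite direction. The same sign was seen in 15 of the 30 higher and 105 of the 128 lower genes. The count of 61 followed the calls in culture, and with 1 culture library left out it was 5, 11 and 36 without BMD replicates 1, 2 and 3 and 23, 34 and 42 without ER-Hoxb8 replicates 1, 2 and 3 (a check added after the values were seen). Apoc1 ran from 2.76 to 4.50 (median 3.53) in the 6 BMD and from 5.36 to 10.49 (median 8.95) in the 6 ER-Hoxb8 libraries from brain (difference 4.86, adjusted p = 2.97e-06). B3galnt1 ran from 4.82 to 6.27 (median 5.55) and from -1.39 to 3.45 (median 1.00), with a difference of -4.41 (adjusted p = 8.57e-06). Apoe was at 12.76 to 16.25 (median 14.80) against 10.68 to 12.82 (median 11.69), still lower in ER-Hoxb8 cells (difference -2.95, adjusted p = 0.0133) but high in both, and the brain difference was smaller than that in culture (adjusted p = 0.00823 for the interaction, the test of 1 difference against the other).

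For other genes the difference in culture was not found in the brain, and 55 of the 158 had an interaction with an adjusted p below 0.05 (379, or 3.52%, of all tested genes did). The 2 shares are not a fair comparison, since the 158 were picked for a large difference in culture, which the interaction subtracts. The interaction also cannot tell residence in the brain from other factors. The ER-Hoxb8 cells are labelled Cas9 het in culture and WT from brain, the latter bear library names of 2 kinds (GFPHox for replicates 1, 2 and 3, WTHox for replicates 4, 5 and 6), and cells from brain were sorted before their RNA was taken. Ly86 was at 6.29 to 7.90 (median 6.72) in BMD and 6.22 to 8.11 (median 7.17) in ER-Hoxb8 cells from brain, level in both (difference 0.18, interaction adjusted p = 9.23e-09). Rhoj was at most -2.95 in BMD and at most -2.88 in ER-Hoxb8 cells from brain, hardly detected in either (interaction adjusted p = 2.41e-06). Mcoln3 was without counts in all 6 BMD libraries from brain and at -3.62 to 1.81 in ER-Hoxb8 cells (interaction adjusted p = 5.91e-05). The 5 genes called in opposite directions, of which Gpr97 and Tmem40 are named after their values were seen, were Gpr97 (3.43 in culture, -4.26 in brain), Tmem40 (4.92, -2.60), Mmp9 (4.41, -3.10), H2-Aa (-4.63, 2.84) and Slc7a2 (-2.17, 2.12). H2-Aa ran from 7.63 to 9.62 (median 8.98) in BMD and from 10.45 to 12.77 (median 11.43) in ER-Hoxb8 cells from brain, with no overlap (interaction adjusted p = 1.03e-06).

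More antigen presentation and interferon genes were called in brain than in culture, in fits that differ in their number of libraries, and the difference between these families was not tested. Interferon-stimulated genes, of which 0 of 35 were called in culture, had 27 called higher in ER-Hoxb8 cells from brain, and their median went from 0.21 to 2.92 against a median of -0.21 for all genes in brain. MHC class I genes had 0 of 22 called in culture and 9 higher in brain (medians -0.23 and 1.79), and class II had 1 lower in culture and 3 higher in brain (medians -0.01 and 1.40). Cd74 ran from 11.07 to 12.39 (median 11.46) in BMD and from 13.76 to 15.63 (median 14.77) in ER-Hoxb8 cells from brain (difference 3.17, interaction adjusted p = 0.00601). The tested X-linked genes had a median of -2.07 and 6 called lower in brain, and neutrophil granule genes turned from a median of 1.59 to -2.52 with 4 called lower.

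**Figure D5:**
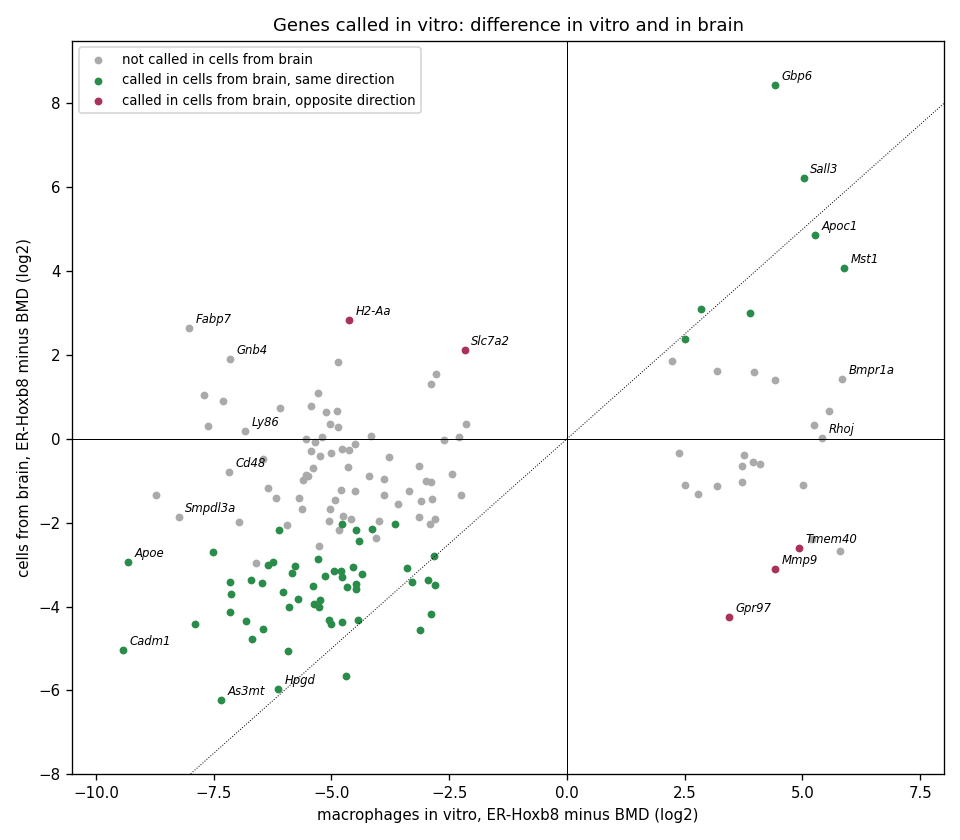
Difference in brain (ER-Hoxb8 minus BMD, log2) against the difference in culture for the 158 genes called in culture; green points are the 61 genes called in the same direction in brain, red points the 5 called in the opposite direction, and the dotted line marks equal differences. Most genes lie between the dotted line and 0, that is with a smaller difference in brain than in culture.

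With 3 libraries per group, drawn from lines and mice that the labels do not identify, most calls depended on single libraries. Genes under 1 CPM in most libraries could not be compared.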

How the data were processed

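Bulk RNA was measured in 3 libraries of ER-Hoxb8 macrophages and 3 of BMD macrophages. The authors counted reads with kallisto (0.46.0) and the deposited table holds log2 CPM after TMM normalization in edgeR, 29957 rows for 92 samples, of which 1 without a gene name was left out. CPM and depth (24.5 to 43.2 M counts) were recovered from the lowest value of the table, and 3 counts per library were taken as the floor. Genes above 1 CPM in at least 3 of the 6 libraries were tested with limma (3.58.1, R 4.3.3, trend on the mean). A call needed a log2 difference of at least 2 in either direction and a p below 0.05 after adjustment by Benjamini-Hochberg. The brain comparison and its interaction were fitted with limma over 5 groups of the same normalization set (BMD and ER-Hoxb8 macrophages, BMD and ER-Hoxb8 cells from brain, and microglia). Tables and figures used Python 3.11.15, numpy 2.4.6, pandas 2.3.3, scipy 1.17.1 and matplotlib 3.10.9. The procedure was tested on simulated data.

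The 54 gene lists and their members were chosen with earlier results of these data known. The genes named are the 10 highest and the 10 lowest differences among called genes whose groups did not overlap, every called member of a list, up to 4 members with the highest mean of a list without a call, up to 2 uncalled members with the highest mean of a list with a call, the 13 macrophage identity genes, Hoxb8, and the genes called in all 6 fits that left out 1 library. Other genes are said to be chosen after their values were seen. The alternatives varied the prior count, the normalization, the filter, the variance model, library weights, the groups in the fit, the replicate block, the limits and each library. Apart from the brain and microglia libraries fitted with limma, libraries of other groups served as description only.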

Additional observations from a re-analysis of the deposited data

Results flagged for a closer look

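Only the 20 called genes with the largest differences in culture, 10 in each direction, were looked at here. For 12 of them the difference between ER-Hoxb8 and BMD cells in brain departed from that in culture in a test of the interaction, as it did for 55 of all 158 called genes. The 20 were picked for a large difference in culture, which the interaction subtracts. The count of 12 can therefore not be read as a result about the brain. The brain difference minus the culture difference (log2) was 6.376 for Apoe, 4.387 for Cadm1, 7.368 for Ch25h, 10.67 for Fabp7, 8.751 for Mcoln3, 7.934 for Pde1c and 6.378 for Smpdl3a, all lower in ER-Hoxb8 macrophages in culture. It was -8.462 for G0s2, -7.604 for Mgl2, -6.111 for Mgst2, -4.918 for Rasd2 and -5.393 for Rhoj, all higher in ER-Hoxb8 macrophages in culture.

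In 7 gene and group pairs 1 brain library was set off by a wide gap from the other 5 of its group (log2 CPM). Among ER-Hoxb8 cells from brain, Bmpr1a was at -1.418 and Sall3 at -0.3039 in replicate 6, both low, and Mcoln3 at 1.81 in replicate 6, Pde1c at -0.427 in replicate 3 and Rhoj at -2.876 in replicate 4 were high. Cyp2j6 was at -0.9922 in replicate 1 of the same group, and Rhoj at -2.948 in replicate 6 of the BMD cells from brain. Both Rhoj values lie below the floor of 3 counts in their libraries (-2.34 and -2.45), so neither is a measured departure. Such gaps arise by chance in about 1 in 20 groups, and no cause was tested.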

How the results depend on the processing

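The number of called genes (158, of which 30 higher and 128 lower) was 49 with a mean CPM above 5 (9028 genes tested), 672 with array weights (281 higher and 391 lower), 262 when 5 groups shared the spread (51 and 211) and 0 with the replicate number as a block (limma, 909 genes at an unadjusted p below 0.05). Leaving out 1 library gave 10 to 109. Under log2(CPM + 0.1), log2(CPM + 1), quantile normalization, median centring, no filter, no variance trend and a log2 limit of 1 it was 130 to 200. Genes whose groups did not overlap (2241) numbered 2910 to 3676 with 1 library left out, where fewer libraries have to lie apart. Genes on in one group and off in the other (21) numbered 67 with off under 0.5 CPM, 39 with on over 1 CPM and 5 with on over 5 CPM, and 25 to 36 with 1 library left out (0 to 2 of them on in the ER-Hoxb8 macrophages). Genes called in the same direction in brain (61) numbered 5 to 42 with 1 library left out, and 41 to 72 under the other alternatives. The leave-one-out values of the last 2 counts, those of the lowest fold of off genes, and its mean over log2 values were chosen after seeing the data. From mean CPM that fold was larger for some genes, 1301 in place of 357 for Ch25h and 137 in place of 90.5 for Cxx1a. The causes were not tested. No named gene that was called changed direction under any alternative, and of 848 list medians recomputed 80 moved by more than the spread between libraries. Among the 50 called named genes 10 were still called without BMD replicate 1, 23 with a mean CPM above 5, 0 with the replicate block and 40 to 49 under the other alternatives that kept all libraries. Depth limited genes near the floor, where 3 counts are 0.084 to 0.138 CPM.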

Other observations

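Most called genes belong to no list (117 of the 158), and some of the larger differences are among them, named here after their values were seen. Cd48, an adhesion protein of blood cells, was at 7.65, 8.17 and 7.05 in the BMD and at 0.44, 1.68 and -0.79 in the ER-Hoxb8 macrophages (difference -7.18, adjusted p = 0.00664), lower in all 3 ER-Hoxb8 libraries. The cation channel Trpv4 was at 5.04, 6.04 and 5.40 against 0.40, -2.70 and -2.71 (difference -7.16, adjusted p = 0.0172), and the monoamine oxidase Maoa at 6.48, 7.01 and 4.91 against -1.996, 0.70 and -0.77 (difference -6.82, adjusted p = 0.0156). Each was lower in 3 of 3 ER-Hoxb8 libraries. The adjusted p with 1 library left out ran from 0.0103 to 0.0644 for Cd48, from 0.00994 to 0.0983 for Trpv4 and from 0.0192 to 0.104 for Maoa.

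Chromosome 6 held 16 genes called lower among 523 tested (3.06%), chromosome 3 held 14 among 512 (2.73%) and the X chromosome 9 among 345 (2.61%). Chromosome 12 held 0 called lower among 354 in limma, beside 1327 genes of all chromosomes at an unadjusted p below 0.05. Over all tested genes 1.19% were called lower. These shares are descriptions and were not tested.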
